A study of Mus musculus with 4 samples.

Results

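The 103 probe sets whose gene symbol starts with Snord were followed on 4 arrays of mouse colon RNA, out of 32202 probe sets with a gene symbol. All 103 are described in the deposited table as small nucleolar RNA, C/D box, and they carry 72 distinct symbols. Snord116 alone has 31 of the probe sets, and these hold only 2 distinct sets of values, so the 103 probe sets amount to 74 distinct value profiles. The colon came from Balb/c mice that drank plain water (control, 2 arrays, numbered 1 and 2) or water with 5% maltodextrin (2 arrays, numbered 3 and 4) for 45 days. No allele, transgene or other agent is named for either group, and the sources used here give neither age nor sex. It is not stated that each sample is its own mouse, so the p-values refer to the spread among these 4 samples alone, part of which may be technical. Values are log2 intensities of GeneChip Mouse Gene 2.0 ST arrays, where a probe set summarises several probes, and differences are maltodextrin minus control on that scale.

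Box C/D RNAs are short noncoding RNAs of the nucleolus, the site of ribosome assembly. Most of them pair with a ribosomal RNA and guide the methylation of 1 of its riboses by the methyltransferase fibrillarin (Fbl), and a few instead take part in cutting the ribosomal RNA precursor. In mammals most lie inside introns of other genes, many of them ribosomal protein genes or noncoding host genes, and are trimmed out of the spliced intron. Some, the orphans, have no known ribosomal target.

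The 4 arrays had similar overall brightness, with medians from 5.20 to 5.35 over all rows. Of the 8 colon epithelium markers, 8 lay on every array above the 95th percentile of 1505 odorant, vomeronasal and taste receptor probe sets, which serves as a guide to background. That percentile was 6.91 on control 1 and 5.53, 5.26 and 5.31 on control 2, maltodextrin 3 and maltodextrin 4. Control 2 stood apart in another way. All 10 pancreatic acinar markers were highest on it, and their summed intensity was 9876 there against 474 on control 1, 326 on maltodextrin 3 and 261 on maltodextrin 4. All 4 adipocyte markers were also highest on control 2 (summed intensity 2910, against 462 to 1248 on the other arrays). Control 2 is also the array on which the small nucleolar RNAs differed most, and the part of the other tissue in that result was not tested.

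Box C/D RNAs were lower on the maltodextrin arrays than on the controls, but over the probe sets other than Snord116 as a whole most of the difference was carried by control 2. The bright ones also lay below control 1: for the 24 with a mean of 8 or more over the arrays other than control 2, the maltodextrin mean minus control 1 had a median of -0.69. Over the 72 probe sets other than Snord116 the median log2 intensity was 6.68 on control 1, 9.94 on control 2, 6.62 on maltodextrin 3 and 6.63 on maltodextrin 4. Control 1 and both maltodextrin arrays therefore had nearly the same median, and control 2 was more than 3 log2 units above them. The control 1 median lay below that array's own receptor percentile of 6.91, and the other medians lay above theirs. Of the 72 probe sets, 34 were above the percentile on control 1, 62 on control 2, 50 on maltodextrin 3 and 51 on maltodextrin 4. Near-equal medians are thus not equal distances from background. The median difference was -1.45 over these 72 probe sets and -0.83 over all 103, against -0.04 over all named probe sets. The maltodextrin mean minus control 1 had a median of -0.22 over the 72, and the maltodextrin mean minus control 2 a median of -2.32. In bulk tissue, fewer cells of a type and less RNA per cell cannot be told apart.

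**Figure D1:**
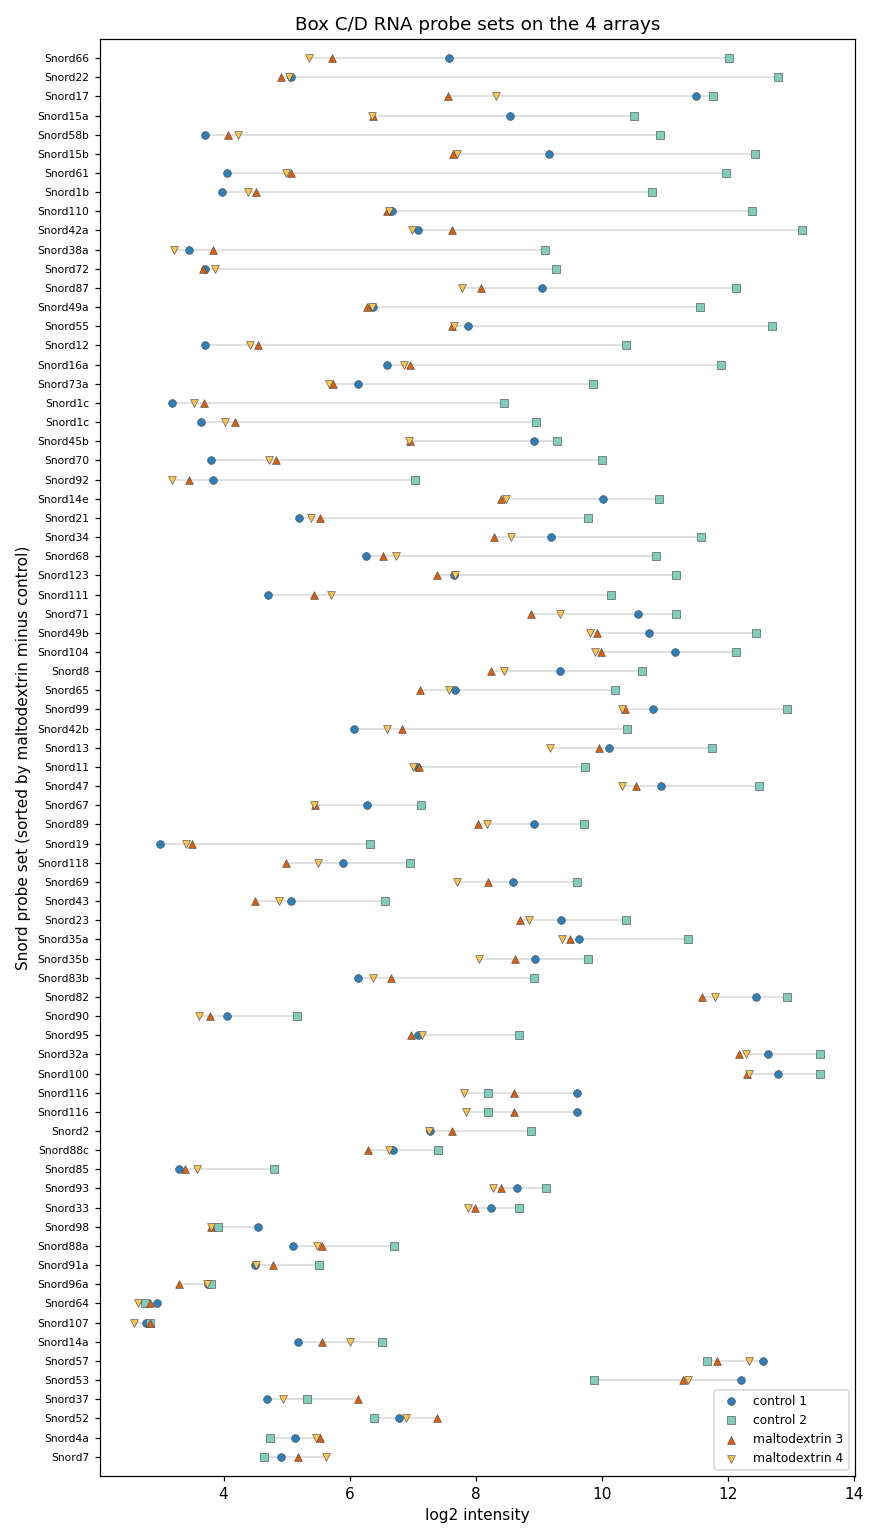
Log2 intensity (x axis) of each distinct Snord value profile (y axis, sorted by maltodextrin minus control) on the 4 arrays; a grey line joins the lowest and highest array of a probe set. For most RNAs control 2 (square) lies far to the right while control 1 (circle) lies among the maltodextrin arrays (triangles), and for a smaller set such as Snord17, Snord45b and Snord14e both controls lie to the right.

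The difference was below 0 for 98 of the 103 probe sets, and for 67 of the 72 other than Snord116, where it was for 54% of all named ones. A nominal criterion was set at an unadjusted limma p under 0.05 together with a change of 1.5-fold or more. By it 18 of the 103 probe sets were lower and 1 was higher, where 3.56% of all named probe sets were lower and 8.51% higher. After adjustment over all named probe sets limma called 0 of the 103 at 0.05, as it called 0% of all named ones, and the smallest adjusted p of a member was 0.198. At an unadjusted p under 0.05 with no limit on the fold, limma called 18 members lower and 1 higher, where 4.63% of all named probe sets were lower. The p-values of the authors' deposited table called 4 members lower at the same nominal limits (Snord14e, Snord17, Snord45b and Snord71), where they called 1.1% of all named probe sets lower. The maltodextrin arrays both lay below both controls for 39 members and above both for 3, where 24.7% and 25.6% of all named probe sets did so. The count turned on single arrays. Leaving out control 1 gave 62 lower members (7.79% of all named probe sets), and leaving out control 2 gave 48 (12.1%). Leaving out maltodextrin 3 gave 6 (0.978%), and leaving out maltodextrin 4 gave 7 (1.61%). The 48 without control 2 were all 31 Snord116 probe sets, which repeat 2 value profiles, and 17 others. Together with the 4 from the authors' p-values, these were the settings that moved the count of 18 by more than 1.5 times. Under the others, 18 were lower with dim probe sets removed (3.16% of all tested), 21 after a new quantile normalization (3.38%), 13 with the arrays centred (2.75%), 18 with unnamed rows added (4%), 18 with trend and robust settings (3.63%), 17 over unique probe sets (2.89%) and 16 at a limit of 2-fold (1.36%). Some immune cell markers also differed between the groups. The 3 measured plasma cell markers were all nominally higher on the maltodextrin arrays, with a median difference of 2.39 and summed intensities of 2290.5 and 1384.5 on the controls against 4685 and 6789. Of 5 B cell markers 1 (Cr2) was nominally lower, with a median difference of -0.99 and sums of 4385 and 2596 against 1474 and 3166. For B cells the maltodextrin 4 sum thus lay between those of the controls. The part of these cells in the Snord differences was not tested.

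The gap between the controls was the largest feature of these RNAs. Control 2 was at least 2-fold above control 1 for 48 of the 103 probe sets, where 3.22% of all named probe sets were, and at least 16-fold above it for 20, where 0.137% of all named probe sets (44 in number) were. It was at least 2-fold below control 1 for 32 of the 103, of which 31 were Snord116 probe sets, where 5.62% of all named ones were. Of the 50 named probe sets with the largest excess on control 2, 21 were Snord probe sets, which make up 0.320% of those named. On control 2, 21 of the 72 probe sets other than Snord116 lay in the brightest 1% of the array, against 6 on control 1, 4 on maltodextrin 3 and 4 on maltodextrin 4. Across the 72 probe sets, the Pearson correlation of control 1 was 0.967 with maltodextrin 4 but 0.644 with control 2, and the maltodextrin arrays correlated at 0.991. These are descriptions across probe sets that share the same arrays, not tests.

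Snord61, a methylation guide within the Rbmx gene, had the widest gap. It was 4.06 on control 1, 11.98 on control 2, 5.07 on maltodextrin 3 and 4.99 on maltodextrin 4. Snord22, from an intron of the noncoding host gene Snhg1, was 5.07, 12.80, 4.91 and 5.03 on the same arrays. For both, 3 arrays lay below the receptor percentile given above, and control 2 was in the brightest 1% of its array. The same shape was seen for Snord58b (3.70, 10.92, 4.08 and 4.22), Snord1b (3.97, 10.80, 4.51 and 4.39), Snord12 (3.71, 10.38, 4.55 and 4.41) and Snord70 (3.80, 10.01, 4.84 and 4.73), read as both controls and then both maltodextrin arrays. The differences of these 6 ran from -3.96 (SE 2.55) for Snord22 to -2.12 (SE 2.05) for Snord70, with adjusted p-values by limma from 0.504 to 0.644. Without control 2 the difference changed sign for 5 of these 6, and was 0.97 for Snord61 and 0.98 for Snord70; for Snord22 it was -0.09.

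**Figure D2:**
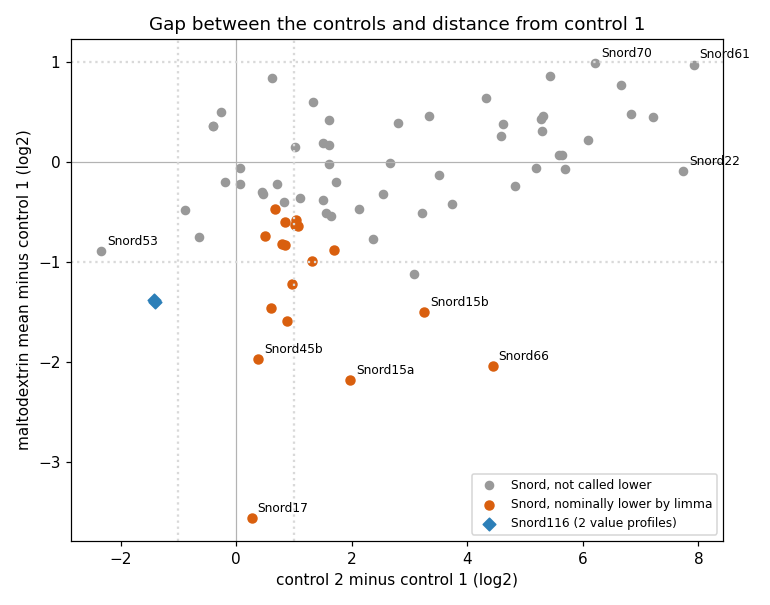
Control 2 minus control 1 (x axis, log2) against the maltodextrin mean minus control 1 (y axis, log2) for the 72 Snord probe sets other than Snord116 and the 2 Snord116 profiles; dotted lines mark 2-fold. Most grey points lie far to the right at a height near 0, and Snord17, Snord45b, Snord15a, Snord66 and Snord15b lie lowest among the labelled orange points.

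At a 2-fold limit the 72 probe sets other than Snord116 fell into 4 patterns, with Snord53 aside. In 44, control 2 was at least 2-fold above control 1 and the maltodextrin mean was within 2-fold of control 1, a pattern found in 2.74% of all named probe sets. These 44 had medians of 6.10, 10.18, 6.01 and 6.18 on control 1, control 2, maltodextrin 3 and maltodextrin 4. In 4 more (Snord15a, Snord15b, Snord66 and Snord87) control 2 was at least 2-fold above control 1 and the maltodextrin mean at least 2-fold below it. In 5 (Snord17, Snord14e, Snord45b, Snord71 and Snord104) the controls were within 2-fold of each other and the maltodextrin mean was at least 2-fold below control 1. In the remaining 18 neither distance reached 2-fold. The maltodextrin mean was thus at least 2-fold below control 1 in 9 of the 72, where 5.33% of all named probe sets were.

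The gap was wider for probe sets that were dim elsewhere. Its median was 3.33 for the 19 probe sets whose mean over the other 3 arrays was under 5, 2.67 for the 29 between 5 and 8, and 0.93 for the 24 at 8 or more. Over all named probe sets in the same ranges the medians lay between -0.13 and 0. Control 1 enters both the level and the gap here. In the same ranges, from dim to bright, the maltodextrin mean minus control 1 had medians of 0.15, -0.01 and -0.69. In the brightest range the median difference was -1.25, against 0.26 over all named probe sets of that range. Probe sets that the annotation marks as unique had a median gap of 1.42 (46 of the 72), and those that can match several transcripts 1.88 (26 of the 72).

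Snord17 had the smallest unadjusted p of the members by limma, while Snord45b had the smallest in the authors' deposited table. This long box C/D RNA, a methylation guide in an intron of Snx5, lies on chromosome 2 from 144265982 to 144266202 (GRCm38.p6). It was 11.50 and 11.77 on the controls and 7.57 and 8.32 on the maltodextrin arrays. Both controls were close together, and the groups did not overlap. The difference was -3.69 (SE 0.31), 12.9-fold lower, with an adjusted p of 0.198 by limma. Snord45b, within Rabggtb, was 8.93 and 9.30 on the controls and 6.96 and 6.95 on the maltodextrin arrays, a difference of -2.16 (SE 0.21; adjusted p = 0.198). Both members differed between the groups by far more than the arrays of either group differed from each other.

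Snord71 was 10.58 and 11.18 on the controls against 8.88 and 9.35 on the maltodextrin arrays, a difference of -1.77 (SE 0.30). Snord104 was 11.17 and 12.14 against 9.99 and 9.90, a difference of -1.70 (SE 0.36). In both, the gap between the groups was wider than the gap within either of them.

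Snord66, within the translation factor gene Eif4g1, had the most negative difference, -4.26 (SE 1.47). It was 7.58 on control 1, 12.02 on control 2, 5.72 on maltodextrin 3 and 5.36 on maltodextrin 4. Without control 2 the difference was -2.04, in the same direction and smaller. Snord15a and Snord15b, both methylation guides from the ribosomal protein gene Rps3, differed by -3.16 (SE 0.67) and -3.13 (SE 1.08). Snord15a was 8.54 and 10.51 on the controls and 6.36 and 6.36 on the maltodextrin arrays. Snord15b was 9.17 and 12.43 against 7.65 and 7.70. Both are near relatives in sequence, although the annotation marks their probe sets as unique.

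Of the 18 members nominally lower with all arrays, 13 were also nominally lower without control 2: Snord104, Snord14e, Snord15a, Snord15b, Snord17, Snord45b, Snord49b, Snord66, Snord67, Snord71, Snord8, Snord82 and Snord89. All 18 were also nominally lower without control 1. Without control 1, 48 members had an adjusted p under 0.05 by limma, as did 905 of all named probe sets. Without control 2, 6 members had an adjusted p under 0.05 by limma (Snord14e, Snord15a, Snord15b, Snord17, Snord45b and Snord66), as did 671 of all named probe sets. The 48 without control 1 included Snord53, which was higher on the maltodextrin arrays there, by 1.45. Each fit without control 1 or control 2 has a single control, whose spread is taken to equal that of the 2 maltodextrin arrays.

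The RNAs known for cutting or modifying steps other than ribose methylation were represented by 5 Snord probe sets, and 2 of the 5 were nominally lower, against 18 of all 103 Snord probe sets and 3.56% of all named ones. Snord14e, a U14 RNA needed in yeast for release of the small subunit RNA and hosted by the heat shock gene Hspa8, was 10.03 and 10.91 on the controls and 8.40 and 8.48 on the maltodextrin arrays. Its difference was -2.03 (SE 0.34), with an adjusted p of 0.232 by limma. Snord14a, another U14 RNA hosted by Rps13, was 5.18 and 6.51 against 5.56 and 6.005, with overlapping groups and a difference of -0.06 (SE 0.49).

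Snord118, the U8 RNA required for large subunit RNA processing (shown in Xenopus), was 5.89 and 6.97 on the controls and 4.99 and 5.503 on the maltodextrin arrays. The difference was -1.18 (SE 0.43; adjusted p = 0.331), and it lay above its own array's receptor percentile on control 2 and maltodextrin 4 and below it on the other arrays. Snord13, the U13 RNA, which guides acetylation of the small subunit RNA, was 10.11 and 11.75 against 9.96 and 9.18, a difference of -1.36 (SE 0.62; adjusted p = 0.394). Neither Snord118 nor Snord13 lies inside a coding or long noncoding gene of the reference table, and both lay below both controls. Snord22, described above, is the U22 RNA of small subunit processing in Xenopus.

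U3, the most abundant box C/D RNA and the core of the processing complex for the small subunit, carries the symbols Rnu3a and Rnu3b and so is no Snord member. Rnu3a was 6.99 and 9.10 on the controls and 4.498 and 4.57 on the maltodextrin arrays. The 4 Rnu3b4 probe sets held identical values, 9.96 and 11.35 against 8.13 and 8.30. Both U3 genes were nominally lower and below both controls.

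The 6 members with the highest mean intensity (Snord100, Snord32a, Snord82, Snord57, Snord53 and Snord99) had differences from -1.54 to 0.28. Snord100, within Rps12, was 12.79 and 13.47 on the controls and 12.30 and 12.34 on the maltodextrin arrays, a difference of -0.81 (SE 0.28). Snord82, within the nucleolin gene Ncl, was 12.44 and 12.95 against 11.59 and 11.80, a difference of -0.998 (SE 0.25). Snord99, within Snhg12, was 10.82 and 12.95 against 10.37 and 10.32, a difference of -1.54 (SE 0.72). The groups did not overlap for any of these 3, and Snord100 and Snord82 met the nominal criterion. Control 2 was the highest array for 63 of the 103 probe sets, where it was the highest for 24.6% of all named ones.

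A few members ran the other way, either between the controls, between the groups or in both. Snord57, a methylation guide within Nop56, was 12.57 and 11.67 on the controls and 11.83 and 12.34 on the maltodextrin arrays, with overlapping groups and a difference of -0.03 (SE 0.38). Snord53, within Wdr43, was 12.22 on control 1 but 9.88 on control 2, with 11.29 and 11.36 on the maltodextrin arrays. It was the only one of the 72 that was at least 2-fold lower on control 2 than on control 1 (5.62% of all named probe sets were), and its difference of 0.28 (SE 0.79) became -0.89 without control 2. The 5 members with a difference above 0 were Snord53, Snord37, Snord52, Snord4a and Snord7.

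Snord7 was the 1 member at the nominal criterion upwards, with 4.91 and 4.64 on the controls and 5.19 and 5.62 on the maltodextrin arrays. It was above the receptor percentile on maltodextrin 4 alone, and its difference of 0.63 (SE 0.24) had an adjusted p of 0.342 by limma. Snord52 (6.78 and 6.38 against 7.38 and 6.90) and Snord4a (5.14 and 4.73 against 5.52 and 5.47) were also above both controls, with differences of 0.56 (SE 0.27) and 0.56 (SE 0.22). Snord37, within the elongation factor gene Eef2, had the widest gap between the maltodextrin arrays, 6.13 against 4.95, with 4.70 and 5.32 on the controls.

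Snord116 belongs to the imprinted Snurf-Snrpn domain of chromosome 7, where it is expressed from the paternal chromosome, mainly in neurons, and its loss in humans is linked to Prader-Willi syndrome. It has no known ribosomal target. The annotation marks all 31 of its probe sets as not unique, and they split into 2 profiles that differ by at most a few hundredths. The first was 9.61 on control 1, 8.20 on control 2, 8.60 on maltodextrin 3 and 7.82 on maltodextrin 4. Here control 1 was the highest array and control 2 lay between the maltodextrin arrays, unlike most of the other members. The difference was -0.69 (SE 0.56; adjusted p = 0.583), and it was 0.014 without control 1. Snord64 and Snord107 of the same domain were at background on all arrays, from 2.64 to 2.94 and from 2.58 to 2.83.

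Most host genes differed less between the groups than the RNAs within them, although the contrast itself was not tested. Positions in the reference gene table (GRCm38.p6) were found for 71 of the 103 probe sets, and 63 of these lay within exactly 1 coding or long noncoding gene, 45 host genes in all. Strand was not checked for the small RNAs. Of the 42 hosts with a named probe set, 38 had a smaller difference, whatever its sign, than the median of their RNAs, and 4 a larger one (Rps12, Rps13, 1110038B12Rik and Snhg14). At the nominal criterion 1 host was lower and 2 were higher, where 3.56% and 8.51% of all named probe sets were. The direction turned with the setting, with 4 lower and 0 higher after a new quantile normalization and 16 lower and 3 higher without control 1. For the 6 hosts with several probe sets the one with the highest mean was taken; over the 36 with a single one, 0 were lower and 2 higher. The median difference of the hosts was -0.06, and their median control 2 minus control 1 was 0.26. The 56 small RNA probe sets within these hosts had a median difference of -1.24 for coding hosts (42 probe sets) and of -2.04 for noncoding hosts (14 probe sets), and the gap between the controls was 1.60 and 3.29.

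Rps12, the host of Snord100, was the lower one, with 10.19 and 11.74 on the controls and 9.39 and 9.38 on the maltodextrin arrays (difference -1.58). Its other probe sets differed by -1.499 and -1.71, and the annotation marks all 3 as not unique. The higher hosts were Snhg18 at 0.65, which holds Snord123, and 2410006H16Rik at 0.69, which holds Snord49a, Snord49b and Snord65. Among hosts of strongly differing members, Snx5, Hspa8, Rabggtb, Rps3 and Eif4g1 had differences between -0.62 and -0.03. Others lay outside this range on both sides, such as Rpl23a at -0.85, which holds Snord42a, and Snhg1 at 0.31, which holds Snord22. Snx5 was 8.32 and 8.26 against 8.19 and 8.33, and Hspa8 was 12.17 and 12.31 against 12.19 and 12.21. Both hosts differed by less than 0.1 while their small RNAs, Snord17 and Snord14e, had differences of -3.69 and -2.03. Rabggtb, the host of Snord45b, was 6.56 and 7.93 against 6.96 and 7.07, a difference of -0.23. Rps3, the host of Snord15a and Snord15b, was 9.75 and 10.52 against 9.50 and 9.53, a difference of -0.62. Eif4g1, the host of Snord66, was 9.57 and 10.18 against 9.86 and 9.77. Control 2 was at least 2-fold above control 1 for 10 of the 42 hosts, where 3.22% of all named probe sets were. It was so for 7 of the 36 hosts with a single probe set. Host probe sets could disagree: for Rpl13, control 2 exceeded control 1 by 2.02 and 2.14 on 2 probe sets that are not unique and by 0.67 on the unique one.

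Hosts of box C/D RNAs often belong to the class of genes whose transcripts begin with a C and a run of pyrimidines, the terminal oligopyrimidine motif known from ribosomal protein genes. The stretches around the start sites of 5 hosts are shown: Nop56, Rpl13a and 2410006H16Rik hold several members, and Snhg12 and Gas5 are noncoding hosts of bright members (Snord99 and Snord47). Each window covers 40 bases before to 20 bases from the annotated start, 5′ to 3′ on the gene's strand, from RefSeq (GRCm38.p6). Capitals mark a C followed by at least 4 letters that are each C or T, beginning within 5 bases of the start.
Nop56 (chr2:130274372-130274431, plus strand): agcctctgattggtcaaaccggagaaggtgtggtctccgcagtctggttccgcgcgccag
Rpl13a (chr7:45128726-45128785, minus strand): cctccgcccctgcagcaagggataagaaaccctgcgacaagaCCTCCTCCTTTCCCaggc
2410006H16Rik (chr11:62602837-62602896, plus strand): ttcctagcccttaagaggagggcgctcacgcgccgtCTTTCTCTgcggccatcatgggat
Snhg12 (chr4:132308638-132308697, plus strand): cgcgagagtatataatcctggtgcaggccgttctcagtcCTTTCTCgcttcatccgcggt
Gas5 (chr1:161035126-161035185, plus strand, the second of its listed starts): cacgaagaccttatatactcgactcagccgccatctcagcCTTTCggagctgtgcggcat

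The motif was present at 1 or more starts of 11 of the 36 hosts in the promoter table (30.6%), and of 21.2% of all 27025 genes there. It was searched on the gene's strand only, since it describes the first bases of a transcript, and 18.3% of all 32851 start sites hold it. The Nop56 window does not hold these letters within 5 bases of its start. All the other windows shown hold them there, so those shown are not typical of the 36 hosts. The first listed start of Gas5 does not hold them, nor do Rps3 and Wdr43, which hold several members and are not shown. A match describes the letters and not a site in use.

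RNAs that share a host did not always share a profile. Within Nop56, Snord110 was 6.68 on control 1, 12.38 on control 2, 6.59 on maltodextrin 3 and 6.62 on maltodextrin 4, while Snord57 was lower on control 2 than on control 1 by 0.89. The Nop56 probe set itself was 7.69, 8.10, 7.88 and 7.86. One small RNA of this transcript was thus far above the others on control 2 and the other was not.

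Within Wdr43, Snord92 was 3.83 and 7.04 on the controls and 3.46 and 3.18 on the maltodextrin arrays, and Snord53 went the opposite way between the controls. Within Rpl23a, Snord42a was 7.09, 13.18, 7.63 and 6.99 and Snord42b was 6.07, 10.41, 6.84 and 6.59, while Snord4a was lower on control 2 than on control 1 by 0.41. The 3 RNAs of 2410006H16Rik were all highest on control 2, by 1.70 for Snord49b, 2.54 for Snord65 and 5.19 for Snord49a over control 1. The host was lower on control 2 than on control 1, 8.48 against 8.95.

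The Rpl13a introns hold Snord32a, Snord33, Snord34 and Snord35a, of which Snord32a, Snord33 and Snord35a are known from cultured cells as mediators of cell death under excess fatty acid. Snord32a was 12.64 and 13.47 on the controls and 12.18 and 12.29 on the maltodextrin arrays. Snord33 was 8.24 and 8.69 against 7.99 and 7.88, and Snord35a 9.64 and 11.37 against 9.50 and 9.37. Snord34 was 9.20 and 11.58 against 8.29 and 8.56. In all 4 both maltodextrin arrays lay below both controls, by 0.53 to 1.96 on average, and none met the nominal criterion. Both maltodextrin arrays lay below both controls for 24.7% of all named probe sets and for 39 of the 103 Snord ones. No named probe set was found for Rpl13a itself.

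**Figure D3:**
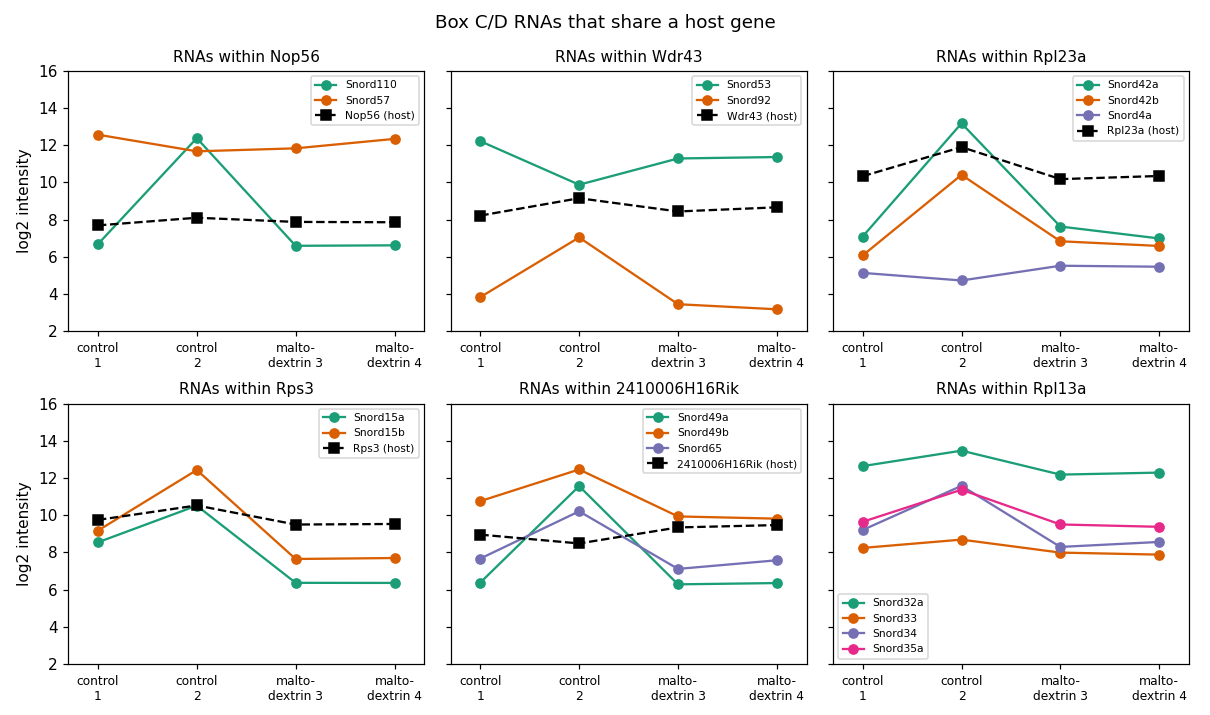
Log2 intensity (y axis) on the 4 arrays (x axis) of Snord probe sets grouped by 6 shared host genes, with the host's own probe set as black squares where one was named (the brighter of 2 for Rpl23a); lines only join the values of 1 probe set. Snord110, Snord42a and Snord49a peak on control 2, whereas Snord57, Snord53 and Snord4a from the same hosts as Snord110, Snord92 and Snord42a do not.

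Among the proteins that bind and assemble box C/D RNAs, calls were no more frequent than over all genes. Of 20 measured genes of the list, 0 were nominally lower and 1 (Nufip1) was higher, where 3.56% and 8.51% of all named probe sets were, and the median difference was -0.01. Fibrillarin (Fbl), the methyltransferase, was 7.98 and 8.19 on the controls and 7.91 and 7.99 on the maltodextrin arrays. The core protein Nop56 differed by -0.03 (SE 0.21), and its partner Nop58 by -0.73 (SE 0.55), with 7.54 on control 1 and 9.12 on control 2. The fourth core protein, named Nhp2l1 in the file and now called Snu13, was 9.96 and 9.08 against 10.26 and 10.23, a difference of 0.73 (SE 0.33). Nufip1, an assembly factor, was 7.43 and 6.82 on the controls and 7.88 and 7.81 on the maltodextrin arrays, higher by 0.72 (SE 0.26; adjusted p = 0.336 by limma). Nucleolin (Ncl) was 8.87 and 9.96 against 8.53 and 8.92.

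Other short RNAs of the nucleus were also lower on the maltodextrin arrays, with a different division between the controls. Among 36 Snora probe sets (H/ACA box RNAs, which guide pseudouridylation) the median was 8.14 on control 1, 9.15 on control 2, 7.04 on maltodextrin 3 and 6.96 on maltodextrin 4. Of these, 23 were nominally lower and 31 lay below both controls, where 3.56% and 24.7% of all named probe sets did. The maltodextrin mean minus control 1 had a median of -0.80 for Snora and -0.93 for the 10 Scarna probe sets, the Cajal body RNAs, against -0.22 for the 72 Snord probe sets. The lists also differed in level, with control 1 medians of 8.14, 7.97 and 6.68. For the 24 Snord probe sets with a mean of 8 or more over the arrays other than control 2, the median distance from control 1 was -0.69, nearer to that of Snora. Control 2 was at least 16-fold above control 1 for 1 of the 36 Snora probe sets and 0 of the 10 Scarna probe sets, against 20 of the 72 Snord ones. At 2-fold it was so for 17 Snora, 4 Scarna and 48 Snord probe sets, and for 3.22% of all named ones. Among 19 Rnu probe sets, those of U3 included, 14 reached 2-fold and 0 reached 16-fold. Their median gap was 2.11, against 1.61 for the 72 Snord probe sets. Of these 19, 16 were nominally lower, and the median difference was -3.46. The difference between these classes was not tested. Micro-RNA probe sets (570) had a median difference of -0.13 and mitochondrial transfer RNAs (18) of -1.07, with a median control gap of -0.12 and 0.10.

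**Figure D4:**
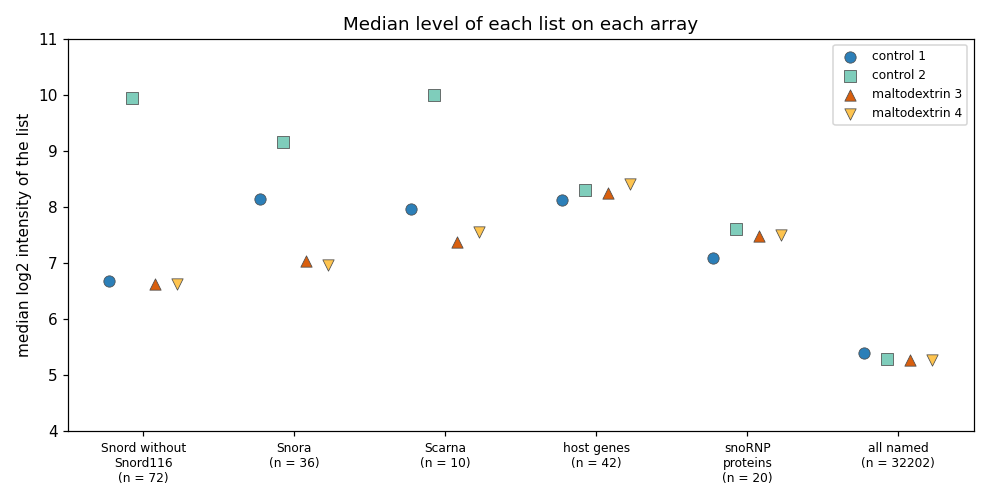
Median log2 intensity (y axis) of each list of probe sets (x axis, with the number of probe sets) on each of the 4 arrays. Snord probe sets without Snord116 have a median of 9.94 on control 2 and between 6.62 and 6.68 on the other arrays, whereas for Snora and Scarna control 1 also lies above both maltodextrin arrays.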

How the data were processed

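For 4 arrays the authors deposited 41345 probe set values as log2 intensity, and a table of their own comparison with 33793 rows (a p-value, its step-up form, a linear ratio and a signed fold score), per the file headers. The submitters' processing notes list Partek 6.6. How background, normalization and summarization were handled was not stated in the labels or headers. Gene symbols and the mark for probe sets that can match several transcripts came from that table. Here limma 3.58.1 (R 4.3.3; lmFit, eBayes; 2 residual and 2.62 prior degrees of freedom) compared maltodextrin with control over all 32202 named probe sets, and Benjamini-Hochberg adjustment covered all of them. As an alternative, the p-values of the authors' deposited table replaced those of limma, at the same fold. Tests were two-sided, and the fit was tested on simulated data. With 2 arrays per group an exact permutation test cannot go below p = 0.333, so none was made, and the number of arrays limits the precision. The members and lists were chosen with earlier results of these data known. Named members were, by rule, the 10 largest differences each way with groups apart, the 6 highest means, the 6 and 4 widest gaps within controls and within maltodextrin, the rRNA processing RNAs, imprinted clusters and 4 bright members with the smallest difference; those named for a shared host, a pattern or a call were chosen after their values were seen. A host was a gene whose reference position contains the small RNA, on either strand. Sequences are RefSeq's (GRCm38.p6).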

Additional observations from a re-analysis of the deposited data

How the results depend on the processing

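The number of Snord probe sets nominally lower, 18 with all arrays, ranged from 6 to 62 with 1 array left out, and the p-values of the authors' deposited table gave 4. Without the Snord116 probe sets (added after the data were seen) the range was also 6 to 62. It stayed between 13 and 21 under the other settings (dim probe sets removed, a new quantile normalization, median centring, unnamed rows added, trend and robust settings, unique probe sets, 2-fold). The median Snord difference, -0.83, ranged from -1.44 to -0.58 with 1 array left out. It was -1.56 over unique probe sets, -1.35 over symbols, -1.35 over distinct value profiles and -1.45 without Snord116 (the last 2 added after the data were seen). Host genes had 3 nominal calls (2 over hosts with 1 probe set, added after the data were seen; 4, all lower, after a new quantile normalization), from 0 to 19 with 1 array left out, 1 by those p-values and 1 at a 2-fold limit. Protein genes had 1 call, from 0 to 4 with 1 array left out, 2 with median centring, and 0 with dim probe sets removed, a new quantile normalization, unnamed rows added, those p-values or a 2-fold limit. The cause was not tested, beyond fewer samples when an array is left out. Median centring turned the difference of Snord57 to 0.035 and of Snord14a to 0.0029. With 1 array left out the difference ran from -0.48 to 0.41 for Snord57, -0.89 to 1.45 for Snord53, -6.95 to 0.97 for Snord61, -6.77 to 0.45 for Snord58b, -6.35 to 0.48 for Snord1b, -5.90 to 0.77 for Snord12, -5.23 to 0.98 for Snord70, -0.062 to 1.12 for Snord37, -1.40 to 0.014 and -1.38 to 0.032 for the 2 Snord116 profiles and -0.73 to 0.60 for Snord14a. No paired analysis was possible because the sample numbers run through both groups and the groups share none.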
